A study of Drosophila melanogaster with 36 samples.

Results

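The germline and maternal transcripts described here are the products of 34 listed genes that act in the female germline, in the assembly of the egg or in the first divisions of the embryo. Members were taken from that list by gene name. Of the 34 genes, 32 were represented on the array by a probe set annotated to that gene alone, out of 10844 genes with such a probe set in all. All 32 passed the filter on low values that is applied to the tests. The remaining 2, cup and bru1, were not analysed here. Where a gene had more than 1 probe set, the one with the highest mean stood for it.

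The samples were whole adult females of Drosophila melanogaster from 2 lines, one selected for resistance to heat and one nonselected. Each line was sampled without heat and 0.25, 1, 2, 4, 8, 16, 32 and 64 h after 1 h at 36 °C, with 2 arrays for each line and time and 36 arrays in all. The labels number these 2 arrays as bioreplicates and do not say how many flies were pooled, how many populations were selected, how old or mated the females were, or at what hour they were collected. A difference between the lines is therefore a difference between these samples of the lines, and the p-values measure the spread between numbered replicates. All 8 heated times were set against the same 4 untreated arrays, and no untreated flies were labelled as sampled alongside the later times, so heat, age and hour of day cannot be told apart there.

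In the ovary of the fly, nurse cells connected to the oocyte make most of the messenger RNA and protein that the egg receives, and the embryo depends on this maternal supply until its own genome is transcribed. Part of that supply is held untranslated and moved to the poles of the oocyte, where it sets up the body axes and the germ plasm from which the next germ cells form. The germline also holds the piRNA pathway, in which small RNAs bound to Piwi proteins silence transposons. Somatic follicle cells surround the germline cells and secrete the eggshell late in oogenesis.

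Values are background-corrected intensities, given here as log2 levels, on which a difference of 1 is a 2-fold difference. Levels of different genes are not compared, since probe sets differ in their response. The mean level of the 32 members over all arrays ran from 5.99 for grk to 12.68 for me31B. The SD within groups of the same line and time ran from 0.11 for tud and yl to 0.51 for png. With 2 arrays per group it includes any steady difference between the replicate numbers, which was 0.59 for png. Changes of the same size were thus resolved for some members and not for others. In whole flies, fewer cells of a type and less RNA per cell cannot be told apart.

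Several arrays stood apart. The control transcripts, read at their 3' and 5' ends, measure how intact the RNA was and how completely it was copied during labelling. Their log2 ratio of the 3' to the 5' end separated the replicate numbers, with no overlap. It was 2.28 ± 0.20 in replicate 1 and 1.55 ± 0.14 in replicate 2 (SD, n = 18 each). Each replicate number holds every line and time, so the main comparisons are also given within each number. Between replicate numbers, 17 of the 32 members differed (53.1%), against 52.2% of all tested probe sets, and the largest differences were those of osk (lower by 0.58 in replicate 2) and png (higher by 0.59). The second array of the selected line at 32 h carried transcripts of the male reproductive tract, with a median level of 5.85 against 3.29 to 3.92 on the other 35 arrays. On that array 11 of the 32 members had their lowest level of the series, as did 21.6% of all tested probe sets, and the share of male RNA in its values was not tested. Results are therefore also given without the 32 h arrays, an alternative added after the data were seen.

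No member passed the test against untreated flies at any time from 0.25 to 32 h after heat, and 2 passed at 64 h. The test was a limma fit over all 8199 tested probe sets, with Benjamini-Hochberg adjustment over all of them and a threshold of 0.05. Over all probe sets, 0.756% passed at 0.25 h, 1.27% at 1 h, 1.17% at 2 h, 0.354% at 4 h, 1.06% at 8 h, 2.39% at 16 h and 1.1% at 32 h. The count of members with an unadjusted p under 0.05 was 0 at each of 0.25, 1, 2 and 4 h, 2 at 8 h, 3 at 16 h and 6 at 32 h. The estimates bounded the changes. The 95% intervals of all 32 members lay within 2-fold in either direction at each of these times, except at 32 h, where the interval of png reached down to -1.06 and the other 31 stayed within 2-fold. The intervals reached a median of 0.36 to either side of the estimate, so a shift of that size in a single gene was not resolved at these times. They come from the fit without a replicate block, whose errors include any steady difference between the replicate numbers.

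The median change of the 32 members was 0.07 at 0.25 h, 0.06 at 1 h and 0.00 at 2 h. It was -0.04 at 4 h, -0.14 at 8 h, -0.10 at 16 h, -0.19 at 32 h and -0.09 at 64 h, while the median over all tested probe sets lay between -0.02 and 0.04 at every time. Members below the untreated level numbered 8 of 32 at 0.25 h (25%) and 27 of 32 at 32 h (84.4%). Of all tested probe sets, 50.6% and 53.9% lay below it at these times. These counts describe the direction of estimates, and most of these estimates were not resolved from 0. In the limma test 0 members at 0.25 h and 6 at 32 h had an unadjusted p under 0.05.

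**Figure D1:**
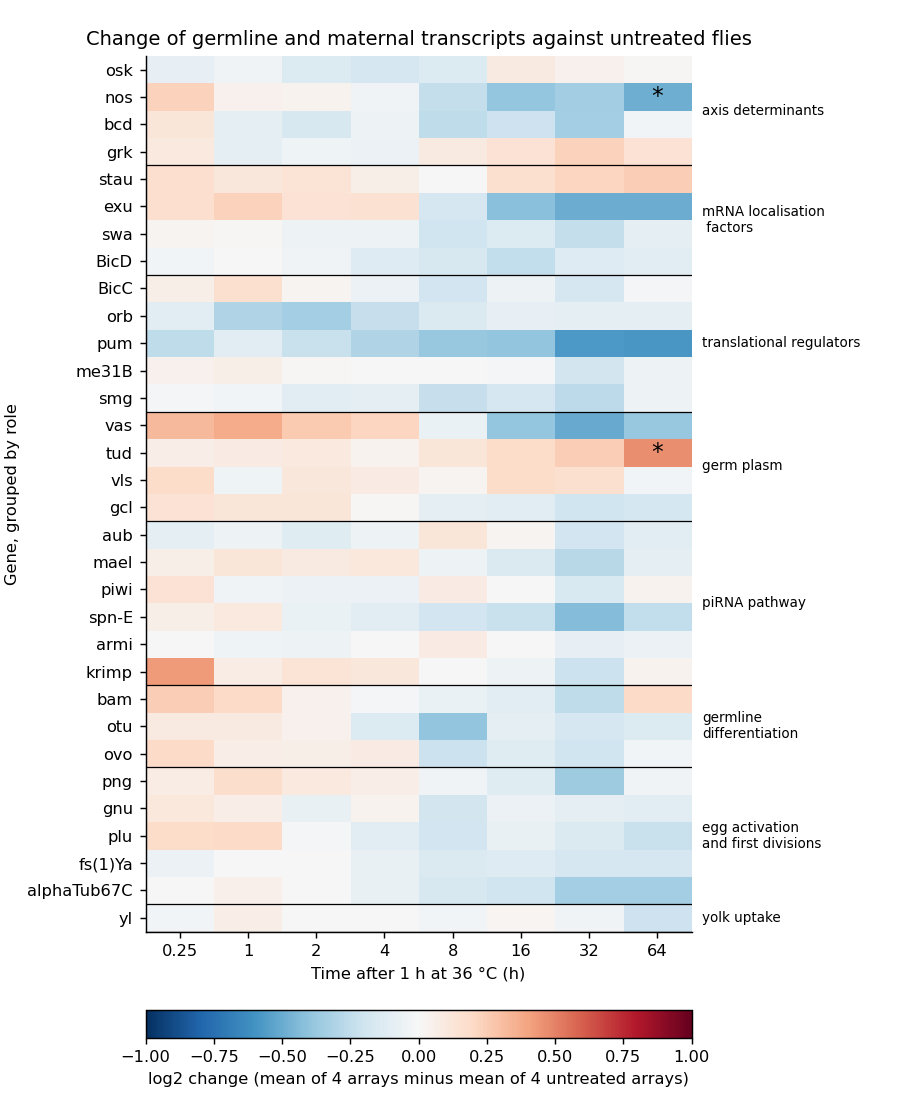
Colour gives the log2 change of each of the 32 members (rows, grouped by role) at each time after heat (columns), as the mean of 4 arrays minus the mean of the 4 untreated arrays, and asterisks mark changes past the adjusted threshold. The 2 asterisks lie at 64 h, on nos (-0.49) and tud (0.47), and most cells from 8 h onward lie below 0.

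At 64 h, nos fell and tud rose, which is 2 of 32 members against 3.57% of all tested probe sets (1.34% lower and 2.23% higher). The nos gene encodes Nanos, the posterior determinant that represses translation together with Pumilio. Its levels were 11.89, 11.94, 11.98 and 11.86 on the 4 untreated arrays and 11.47, 11.73, 11.11 and 11.43 at 64 h. All 4 arrays at 64 h lay below all 4 untreated arrays. The fall was 1.40-fold (log2 change -0.49, SE 0.13, adjusted p = 0.0329). A second probe set of nos fell by 0.53 on the log2 scale (SE 0.13, adjusted p = 0.0250).

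The tud gene encodes Tudor, a scaffold protein of the germ plasm that binds methylated Piwi proteins. Its levels were 8.94, 9.08, 8.94 and 8.90 in untreated flies and 9.44, 9.47, 9.29 and 9.52 at 64 h, again without overlap. The rise was 1.38-fold (log2 change 0.47, SE 0.10, adjusted p = 0.00588). Within replicate 1 the change of tud was 0.43, and that of nos was -0.65. Within replicate 2, where 0 members passed at 64 h against 1.39% of all probe sets, the change of tud was 0.51 and that of nos was -0.33. In replicate 1 alone 4 members passed at 64 h, nos, exu and pum as lower and tud as higher, against 7.87% of all probe sets, and 2 passed at 16 h, nos and exu as lower, against 7.01%. The call of nos was lost with quantile normalization (adjusted p = 0.0762) and with median centring (adjusted p = 0.0608), and it depended on single arrays. It was lost without any 1 of the 4 untreated arrays, without the first nonselected array at 64 h and without the first selected array at 64 h, each of which left tud as the 1 member called.

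Other members did not pass at any single time, and those with the largest estimates in their role groups or called in other comparisons are given here. The pum gene encodes Pumilio, the RNA-binding partner of Nanos, and stood at 10.18, 10.41, 10.27 and 10.13 in untreated flies and at 9.51, 9.76, 9.49 and 9.92 at 64 h. The groups did not overlap, and the log2 change of -0.58 had the largest size among the translational regulators (SE 0.17, adjusted p = 0.0680). Exuperantia, encoded by exu, is required to localise bicoid mRNA, and its change at 64 h was -0.50 (SE 0.20, adjusted p = 0.226). With the replicate number as a block, pum (adjusted p = 0.0403) and exu (adjusted p = 0.0316) passed at 64 h beside nos and tud, against 7.5% of all probe sets. For vas, which encodes the DEAD-box helicase of the germ plasm, the change at 32 h was -0.51 (SE 0.19, adjusted p = 0.230). The otu gene encodes a deubiquitinase needed for germ cell survival and differentiation, and its change at 8 h was -0.40 (SE 0.11, adjusted p = 0.103), the largest in its role group. It passed with the replicate block (adjusted p = 0.0328), where 2.26% of all probe sets did. Leaving out the first selected untreated array put otu past the threshold at 8 h (-0.53, adjusted p = 0.0267). In the piRNA pathway the largest were those of spn-E at 32 h (-0.43, SE 0.22, adjusted p = 0.396) and krimp at 0.25 h (0.43, SE 0.28, adjusted p = 0.999), genes of Tudor-domain proteins. The levels of spn-E at 32 h were 8.24, 8.92, 9.05 and 7.70, the last on the array with male transcripts, against an untreated mean of 8.91. At 32 h, leaving out the first selected array raised the count from 0 to 6, with tud higher and nos, bcd, pum, smg and spn-E lower, against 5.98% of all probe sets, and left the array with male transcripts as the only selected one.

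Levels of the germline list and of the follicle cell list on the same arrays moved over different ranges. The eggshell list, chorion and vitelline membrane genes of the follicle cells, had 17 measured genes. Its median level was 11.26 to 12.16 on the 4 untreated arrays, 4.51 to 8.43 at 16 h and 4.41 to 8.74 at 64 h. The median of the 32 germline members was 9.82 to 10.02 on the untreated arrays, 9.55 to 9.88 at 16 h and 9.50 to 9.91 at 64 h. Fitted changes of the eggshell list had a median of -5.49 at 16 h, with 11 of 17 genes lower, against 0.915% of all tested probe sets. At 64 h the median was -4.20, with 9 of 17 lower, against 1.34% of all tested probe sets. At 32 h the eggshell median was 9.89 to 11.24 on 3 arrays and 4.47 on the first selected array, where the germline members stood at a median of 9.71.

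**Figure D2:**
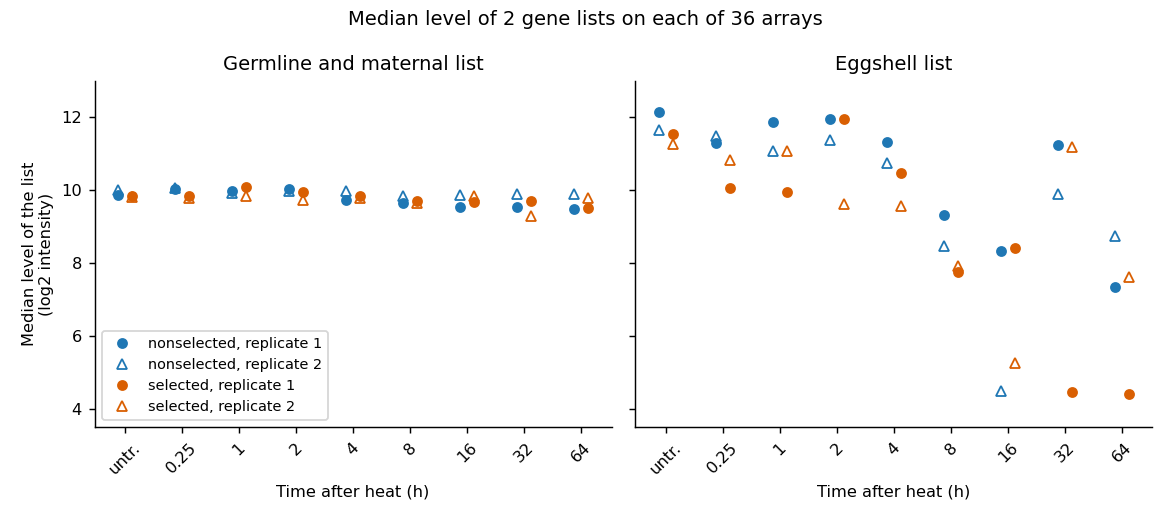
Each point is the median log2 level of the 32 germline and maternal members (left) or of the 17 eggshell genes (right) on 1 array, by time after heat, with colour for line and shape for replicate number. On the same vertical scale the germline medians lie between 9.31 and 10.10 on all 36 arrays, while the eggshell medians lie between 4.41 and 12.16.

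The comparison of late with early recovery uses heated flies alone, so it does not rest on the 4 untreated arrays. It sets the 12 arrays at 16, 32 and 64 h against the 12 at 0.25, 1 and 2 h, with the model's errors. No unheated flies were labelled as sampled at these times, so recovery from heat, age and hour of day cannot be told apart here either. Of the 32 members, 9 fell and 2 rose, against 17.1% of all tested probe sets lower and 18.2% higher. Members called in either direction made up 34.4%, near the 35.3% of all probe sets, and the median change was -0.15 against -0.03 over all probe sets. After centring each array on its median the split was 15 lower and 0 higher, in a fit that called 42.1% of all probe sets (28.8% lower and 13.3% higher). That scaling moved the comparison by -0.10 for every gene. Without the 32 h arrays 7 members fell and 1 rose, against 30.4% of all probe sets in either direction. Without the array with male transcripts alone 6 fell and 2 rose, against 30%. With the replicate number as a block 14 fell and 3 rose, against 48.6%. Added by the block were osk, higher, and BicC, mael, ovo, png and fs(1)Ya, lower.

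The 3 largest falls were those of vas, exu and nos, in 3 different role groups. For vas, levels ran from 9.99 to 10.49 with a median of 10.24 on the early arrays and from 9.06 to 10.00 with a median of 9.50 on the late arrays. On 11 of the 12 late arrays vas was below every early array. The fall was 1.67-fold (log2 change -0.74, SE 0.11, adjusted p = 2.04e-05), and it was -0.90 within replicate 1 and -0.59 within replicate 2, both past the threshold. For exu, levels ran from 11.80 to 12.43 with a median of 12.08 early and from 10.83 to 12.02 with a median of 11.36 late. On 9 of the 12 late arrays exu lay below every early array. The fall was 1.57-fold (log2 change -0.65, SE 0.12, adjusted p = 0.000184), with -0.84 and -0.46 within the replicate numbers. For nos, levels ran from 11.75 to 12.38 with a median of 12.01 early and from 11.11 to 11.78 with a median of 11.50 late. On 10 of the 12 late arrays nos lay below every early array. The fall was 1.42-fold (log2 change -0.51, SE 0.07, adjusted p = 1.91e-05), and the second probe set of nos gave -0.53. All 3 also passed within each replicate number.

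**Figure D3:**
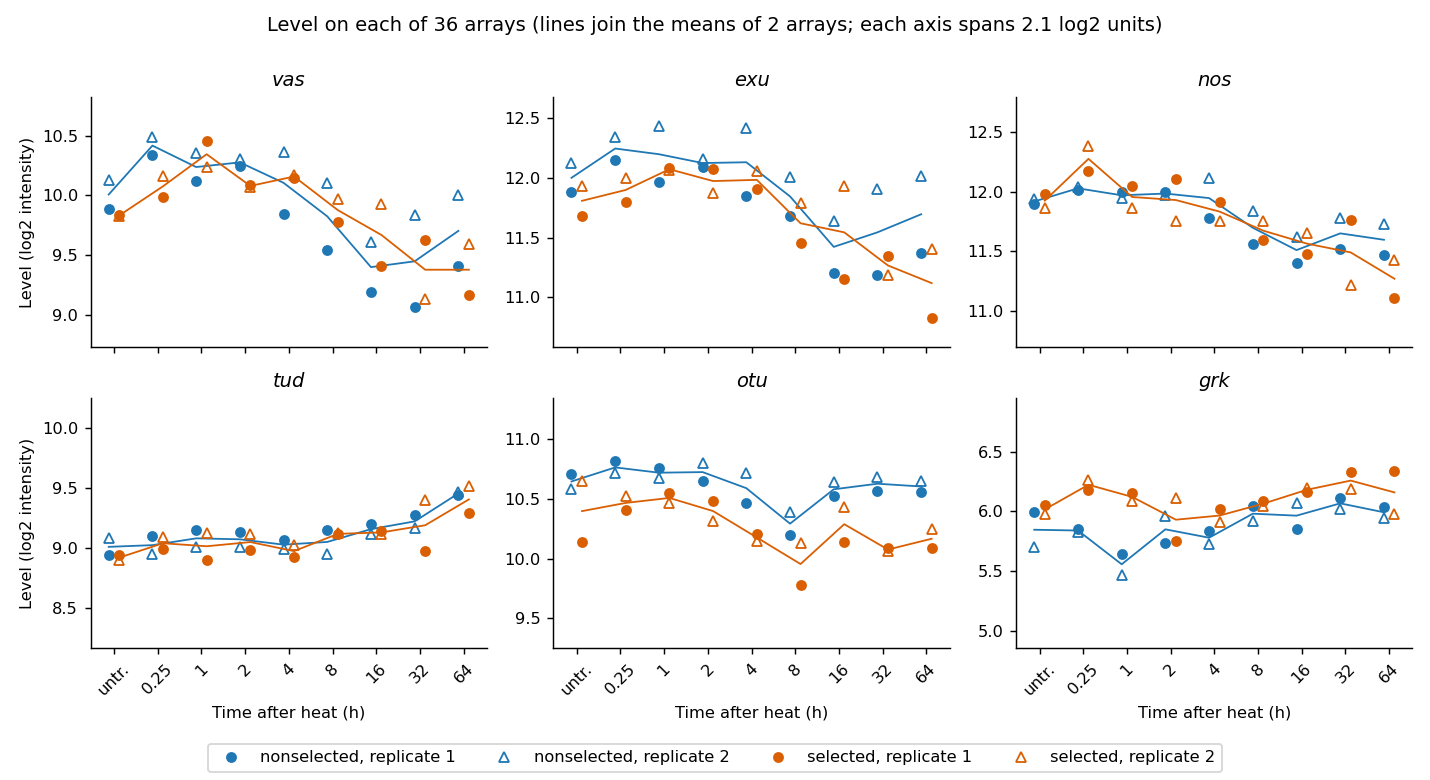
Points are log2 levels of 6 members (vas, exu, nos, tud, otu and grk) on each of the 36 arrays by time after heat, with lines joining the means of 2 arrays and each panel spanning 2.1 log2 units. The means of vas, exu and nos are lower from 16 h onward than up to 2 h after heat, that of tud is highest at 64 h, and the selected means lie below the nonselected ones in otu and above them in grk.

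Time by time, vas had a mean of 9.92 ± 0.14 in untreated flies (SD, n = 4), 10.25 at 0.25 h, 10.29 at 1 h and 10.18 at 2 h. It was 10.13 at 4 h, 9.85 at 8 h, 9.53 at 16 h, 9.41 ± 0.38 at 32 h and 9.54 at 64 h. Its early means lay above the untreated mean and its late means below it, and no single time passed the test against untreated flies. The early means of exu also lay above its untreated mean of 11.91, at 12.07, 12.14 and 12.05, and its late means were 11.48, 11.41 and 11.41. In both genes the step from early to late recovery was larger than that from untreated flies to late recovery.

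Among the germ plasm members, gcl fell (log2 change -0.29, SE 0.08, adjusted p = 0.00584), whose product, Germ cell-less, is required for germ cells to form at the posterior pole. Its levels ran from 10.64 to 11.03 with a median of 10.74 early and from 10.00 to 10.90 with a median of 10.46 late. In the opposite direction tud rose (0.21, SE 0.06, adjusted p = 0.00487), with levels from 8.90 to 9.15 early and from 8.98 to 9.52 late, and 8 of its 12 late arrays lay above every early array. The rise of tud was 0.18 within replicate 1 and 0.25 within replicate 2, each past the threshold, but 0.11 after median centring (adjusted p = 0.0989). For vls, which encodes Valois, a germ plasm protein that binds Tudor, the change was 0.02 (95% interval -0.22 to 0.25). The 4 measured members of the germ plasm thus comprised 2 that fell, 1 that rose and 1 that did not pass.

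Among the axis determinants, grk rose and nos fell. The grk gene encodes Gurken, a ligand of the EGF receptor that the oocyte sends to the follicle cells. Its levels ran from 5.47 to 6.27 with a median of 5.91 early and from 5.86 to 6.34 with a median of 6.09 late (change 0.18, SE 0.06, adjusted p = 0.0190). The direction held with each scaling tried, and the call was lost with quantile normalization (0.11), with median centring (0.08), within replicate 2 (0.11) and without the 32 h arrays (0.15). The change was -0.15 for bcd, the anterior determinant (SE 0.15, adjusted p = 0.434), and 0.13 for osk, which assembles the germ plasm (SE 0.16, adjusted p = 0.545). With the replicate number as a block osk passed (SE 0.05, adjusted p = 0.0459), as did 48.6% of all probe sets.

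Among the localisation factors, exu alone passed of 4. The other 3 ranged from -0.15 for swa to 0.06 for stau, which encodes the RNA-binding protein Staufen. Of the 5 translational regulators, pum fell (log2 change -0.32, SE 0.10, adjusted p = 0.0168). Its levels ran from 9.69 to 10.32 with a median of 10.12 early and from 9.45 to 10.15 with a median of 9.76 late. Within replicate 1 the change of pum was -0.53 and within replicate 2 it was -0.10, which did not pass. Changes of the other 4, BicC, orb, me31B and smg, ran from -0.16 to 0.16. Orb is the germline protein that binds cytoplasmic polyadenylation elements, Me31B a helicase of repressed mRNA particles, and Smaug a factor that clears maternal mRNA in the embryo.

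Of the 6 members of the piRNA pathway, 1 fell. The spn-E gene encodes Spindle-E, a helicase with a Tudor domain, and its change was -0.33 (SE 0.13, adjusted p = 0.0473), a call that was lost with no filter on low values (adjusted p = 0.0696) and with quantile normalization (adjusted p = 0.0502). Its levels ran from 8.47 to 9.24 with a median of 8.91 early and from 7.70 to 9.05 with a median of 8.66 late, the lowest being the array with male transcripts. The change of mael was -0.26 (adjusted p = 0.0629) and that of krimp was -0.29 (adjusted p = 0.166), both genes of perinuclear piRNA factors. The Piwi family genes aub and piwi stood at -0.00 (95% interval -0.15 to 0.15) and -0.05 (-0.26 to 0.16), and armi, which encodes a helicase that loads Piwi, at -0.02 (-0.21 to 0.18).

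Of the 3 differentiation genes, otu fell (log2 change -0.21, SE 0.06, adjusted p = 0.0157), with levels from 10.32 to 10.81 early and from 10.06 to 10.69 late. This call was lost without the 32 h arrays (-0.19, adjusted p = 0.0584). The changes of ovo, a transcription factor gene of the female germline, and bam, which drives stem cell daughters to differentiate, were -0.22 (adjusted p = 0.0602) and -0.22 (adjusted p = 0.351). Of the 5 genes of egg activation and the first divisions, plu and alphaTub67C fell. With Png and Gnu, Plutonium forms the kinase complex that starts the embryonic cell cycles, and plu changed by -0.27 (SE 0.09, adjusted p = 0.0322), from a median of 7.34 early to 7.19 late. The maternal alpha-tubulin gene alphaTub67C changed by -0.31 (SE 0.12, adjusted p = 0.0448), from a median of 11.49 to 11.11. Its call was lost without the 32 h arrays (adjusted p = 0.105) and with no filter on low values (adjusted p = 0.0650). The changes of png (-0.29, SE 0.19), gnu (-0.12) and fs(1)Ya (-0.14), which encodes a nuclear envelope protein of the egg, did not pass. The yolk receptor gene yl, whose product takes up yolk protein into the oocyte, changed by -0.09 (adjusted p = 0.214).

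**Figure D4:**
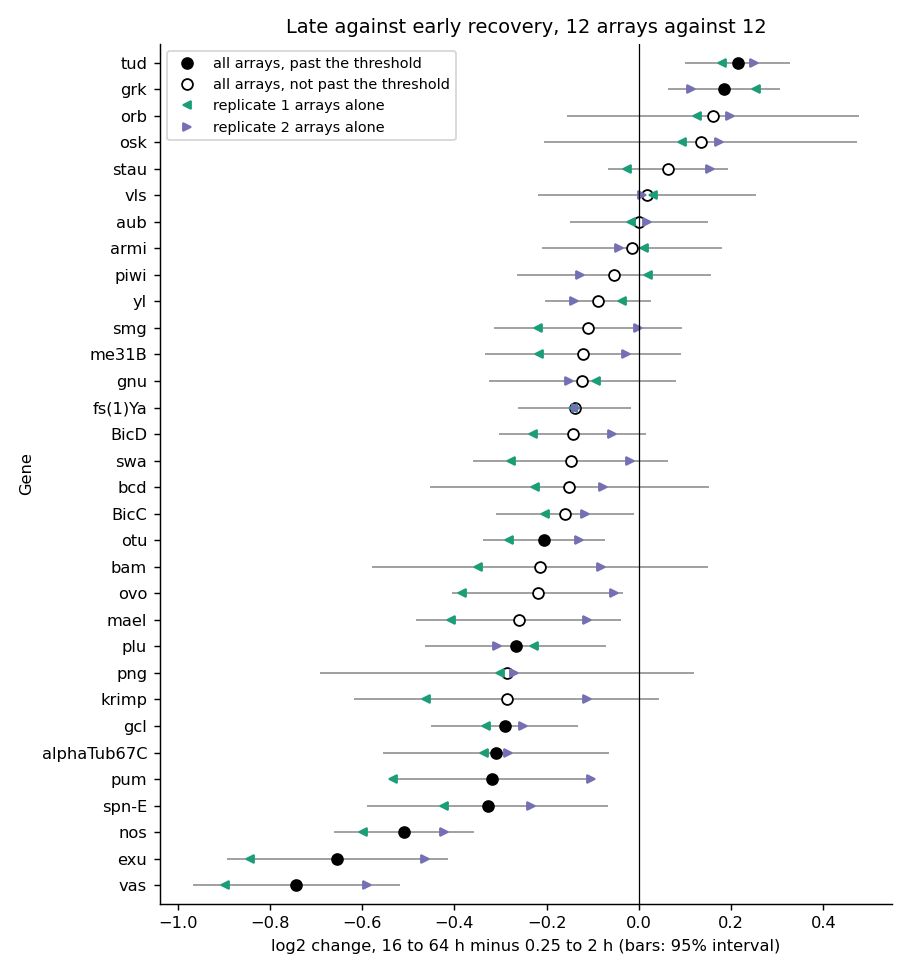
Circles give the log2 change of each of the 32 members between the 12 late arrays (16 to 64 h) and the 12 early arrays (0.25 to 2 h), filled where past the adjusted threshold, with 95% intervals, and triangles give the same change within each replicate number. vas (-0.74), exu (-0.65) and nos (-0.51) lie furthest below 0, and tud (0.21) and grk (0.18) are the 2 filled circles above it.

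The late falls were more numerous within replicate 1 than within replicate 2. Within replicate 1, 18 members fell and 2 rose, against 24.8% and 25% of all probe sets. Within replicate 2, 3 fell (vas, exu and nos) and 1 rose (tud), against 6.21% and 10.2%. The number of members below 0 was 25 of 32 in each. Over all arrays it was 26 of 32 (81.2%), against 54.6% of all probe sets. Leaving out the first selected array at 32 h raised the count over all arrays from 11 to 18, of which 2 were higher, against 41.5% of all probe sets. The calls of spn-E, alphaTub67C and plu were lost when 1 of 28, 18 and 11 of the 36 arrays was left out, respectively, while those of the other 8 members held without any single array.

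A moderated F-test over the 8 heated times against untreated flies called 5 of the 32 members (15.6%), against 13.2% of all tested probe sets. They were nos (adjusted p = 0.00248), vas (0.00417), exu (0.0217), tud (0.0265) and otu (0.0372). The means of otu were 10.52 ± 0.26 in untreated flies, 10.62 at 0.25 h and 1 h, 10.12 ± 0.25 at 8 h and 10.35 to 10.44 from 16 h on, so its lowest mean lay at 8 h. Means of nos were 11.92 ± 0.05 in untreated flies, 12.15 at 0.25 h and 11.43 ± 0.25 at 64 h. Without the first nonselected array at 64 h the test called 3 members, nos, vas and exu, against 11.9% of all probe sets, and within replicate 2 alone it called 0, against 6.89%.

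Between the lines, averaged over the 9 times, 6 of the 32 members differed (18.8%), against 12.2% of all tested probe sets. The selected line was lower in 5 of them, against 6.06% of all probe sets, and higher in 1, against 6.13%. The median line difference of the members was -0.10, and that of all probe sets was -0.05. Estimates below 0 were found for 26 of 32 members (81.2%) and for 63.2% of all probe sets. With the replicate number as a block 11 members were lower and 2 higher, against 28.6% of all probe sets in either direction. Over all arrays, the yolk protein and eggshell lists also had estimates below 0 in the selected line. All 3 yolk protein genes, expressed in fat body and follicle cells, were lower in the selected line, Yp1 at -0.31 (adjusted p = 0.00925), Yp2 at -0.48 (adjusted p = 0.00820) and Yp3 at -0.44 (adjusted p = 0.00199). Of the 17 eggshell genes, 17 had estimates below 0, with a median of -0.93, and 0 passed. The part of these lists in the differences of the members was not tested. The differences were small in size, the largest being 1.27-fold.

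The largest was that of otu. Its levels ran from 10.20 to 10.81 with a median of 10.65 on the 18 nonselected arrays and from 9.78 to 10.65 with a median of 10.23 on the 18 selected arrays. The ranges overlapped, and the selected mean was the lower one at 9 of 9 times, by 0.21 to 0.55. The difference was -0.35 (SE 0.05, adjusted p = 0.000578), and it was -0.37 within replicate 1 and -0.32 within replicate 2. For grk, levels ran from 5.47 to 6.11 with a median of 5.89 in the nonselected line and from 5.75 to 6.34 with a median of 6.10 in the selected line. Here the selected mean was the higher one at 9 of 9 times. The difference was 0.23 (SE 0.05, adjusted p = 0.00485), with 0.22 and 0.23 within the replicate numbers. Only otu and grk passed in the same direction within each replicate number.

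The other 4 line differences were not called within replicate 1. The selected line was lower in yl (-0.18, SE 0.04, adjusted p = 0.0126), where levels ran from 10.26 to 10.64 with a median of 10.45 in the nonselected line and from 9.91 to 10.51 with a median of 10.25 in the selected line. Within replicate 1 the difference of yl was -0.08 and within replicate 2 it was -0.28. The difference of fs(1)Ya was -0.18 (SE 0.05, adjusted p = 0.0204), with medians of 9.95 and 9.79, and -0.10 within replicate 1, and its call was lost without the 32 h arrays (adjusted p = 0.0651). For plu it was -0.28 (SE 0.08, adjusted p = 0.0207), with medians of 7.40 and 7.19, and -0.09 within replicate 1 against -0.48 within replicate 2. In each of these 3 genes the selected mean was the lower one at 9 of 9 times. The BicC gene encodes an RNA-binding protein that recruits the deadenylase to maternal mRNAs, and its difference was -0.20 (SE 0.06, adjusted p = 0.0305), lower at 8 of 9 times and -0.13 within replicate 1. The call of BicC was lost with quantile normalization (adjusted p = 0.0625), without the 32 h arrays (adjusted p = 0.109) and when 1 of 8 of the 36 arrays was left out.

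**Figure D5:**
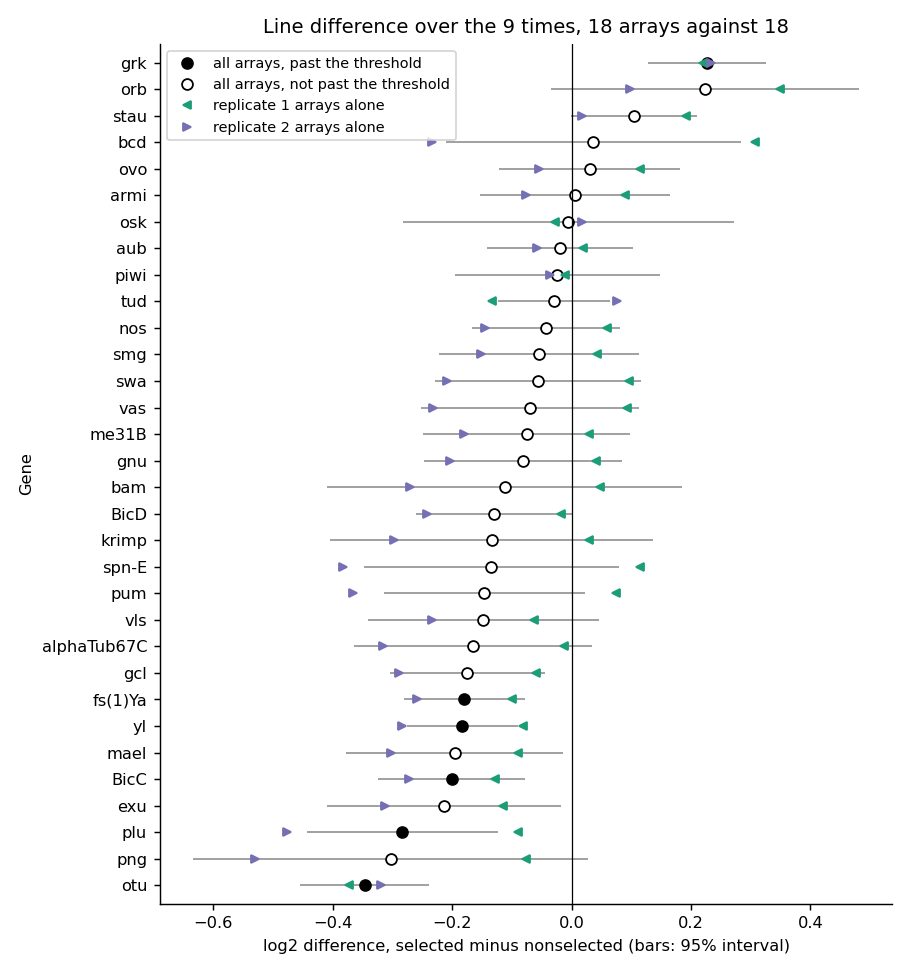
Circles give the log2 difference of each of the 32 members, selected minus nonselected line over the 9 times (18 arrays against 18), filled where past the adjusted threshold, with 95% intervals, and triangles give the difference within each replicate number. otu (-0.35) is lowest and grk (0.23) is the 1 filled circle above 0, and the replicate 1 triangles lie to the right of the replicate 2 triangles for most members that are called below 0.

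Within replicate 1 the median line difference of the members was 0.02, with 15 of 32 below 0, 4 called higher (bcd, grk, stau and orb) and 1 called lower (otu). The background within replicate 1 was 3.42% higher and 3.68% lower. Within replicate 2 the median was -0.23, with 27 of 32 below 0, 15 called lower and 1 higher (grk), against a background of 21.3% and 15%. The lower levels of most members in the selected line were thus found within replicate 2 and not within replicate 1, and a difference between the replicate numbers was not tested. The selected arrays of replicate 2 include the array with male transcripts, and values within replicate 2 without that array are not given here. Without the 32 h arrays, 4 members differed, 3 lower and 1 higher, against 9.62% of all probe sets. Without the array with male transcripts alone, 5 were lower and 1 was higher, against 10.1%.

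No member differed between the untreated lines, 2 arrays against 2, where 0% of all tested probe sets passed and 0 members had an unadjusted p under 0.05. The 95% intervals of 29 of the 32 members lay within 2-fold there. A test of whether the response over time differed between the lines called no member and 0% of all probe sets, and again 0 members had an unadjusted p under 0.05. The limma test called none in these 2 comparisons also with a replicate block, while neither could be made within a single replicate number.

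The 2 lists of related genes were set beside the members. Of 16 measured other genes of the piRNA pathway, vig rose at 32 h (0.81 on the log2 scale, adjusted p = 0.0338), at 64 h (0.78, adjusted p = 0.0173) and from early to late recovery (0.76, SE 0.11, adjusted p = 1.47e-05). The vig gene, counted here with the piRNA pathway, lies within an intron of vas and encodes a protein of the RNA interference complex. It gave every call of the list at a single time and its only rise from early to late. From early to late 2 of the 16 fell, del (-0.34, adjusted p = 0.0102) and qin (-0.35, adjusted p = 0.0388), both piRNA factors of the germline, which is 12.5% of the list against 17.1% of all probe sets, and the median change of the list was -0.17. Of the 16, 0 differed between the lines, against 12.2% of all probe sets, and 1 had an unadjusted p under 0.05.

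Of 31 measured other oogenesis and maternal-effect genes, 0 passed against untreated flies at any single time. From early to late recovery 8 fell and 2 rose, with a median of -0.16, against the 17.1% lower and 18.2% higher of all probe sets given above. The largest fall was that of hb, which encodes the gap protein Hunchback and whose maternal mRNA is repressed by Nanos and Pumilio in the posterior embryo (log2 change -0.86, SE 0.09, adjusted p = 6.88e-07). Among the rest were qua (-0.50), which encodes the actin-binding protein Quail of nurse cells, cort (-0.46), which encodes a meiotic activator of the anaphase-promoting complex, and cad (-0.40), which encodes the posterior factor Caudal. The 2 that rose were dl (0.30), which encodes the dorsoventral factor Dorsal, and tsl (0.39), which encodes the terminal factor Torso-like of the follicle cells. The mean level of dl over all arrays was 5.10, close to the filter value of 5, so its differences were read near the floor. Between lines hb (-0.33), zld (-0.24) and fs(1)N (-0.18) were lower and dl (0.28) was higher in the selected line, 4 of 31 (12.9%) against 12.2% of all probe sets.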

How the data were processed

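Total RNA of whole female flies was labelled with biotin and hybridised to 1-colour oligonucleotide arrays, per the labels. The deposited intensities were made by the authors with GCRMA (version not given in the sources used here), per the submitters' processing notes. GCRMA models background from the probes' base composition, puts arrays on a common distribution and combines the probes of a set. The values were linear and all positive (1.15 to 46856), so log2 was taken without a pseudocount. Depth does not apply to arrays, whose number limits the precision. Of 14010 probe sets, 44 controls were left out. Of the other 13966, GEO's platform annotation gave 12443 a single symbol, 327 several and 1196 none, and 12394 symbols were updated by Entrez identifier in RefSeq's table. A probe set was tested when its 4 highest arrays averaged at least 5 (log2), which left 8199.

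limma 3.58.1 in R 4.3.3 fitted 1 coefficient for each of 18 groups (18 residual degrees of freedom). The 13 comparisons were the 8 times against untreated flies, an F-test over these, late against early recovery, the line over 9 times and untreated, and the interaction. Adjusted p-values are Benjamini-Hochberg over all tested probe sets, with a threshold of 0.05. The fit was tested on simulated data. Every member could be named, with values for those past a threshold and the largest change in each role group. Members and lists were chosen with earlier results of these data known. Alternatives were a replicate block, each replicate number alone, 2 other filters, an offset of 16, quantile normalization, median centring, trend and robust options, averaged probe sets, and leaving out single arrays or the 32 h arrays.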

Additional observations from a re-analysis of the deposited data

Results flagged for a closer look

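The median level of the male reproductive list, accessory gland and testis genes, was 5.85 on the second selected array at 32 h, against 3.29 to 3.92 on the other 35 arrays. Of the 29 measured genes of that list, 22 were at their highest level there, and 20 reached a log2 level of 5 there against 0 on each of the other arrays. The labels describe all samples as female. Counts of members called late against early recovery, with and without that array, are given above beside the shares of all tested probe sets.

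For the 14 members called in any comparison and the median of all members, 1 array at a time stood far from the other 3 in 5 of 135 tests of 4 arrays, where chance gives about 1 in 20. At 2 h BicC was lowest in selected replicate 2, at 9.78 against 10.08 in the nearest array. At 1 h gcl was highest in nonselected replicate 2, at 10.99 against 10.74. At 4 h pum was highest in nonselected replicate 2, at 10.41 against 9.84. At 8 h spn-E was lowest in selected replicate 2, at 8.48 against 8.77. At 64 h plu was highest in nonselected replicate 2, at 7.37 against 7.03. All 5 were replicate 2 arrays.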

How the results depend on the processing

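Direction was kept by all 19 changes past the threshold under every alternative run. With a replicate block the count of members called rose to 1 at 8 h (otu) and 4 at 64 h (tud higher, and nos, exu and pum lower). It rose to 17 late against early (3 higher, 14 lower) and 13 between the lines (2 higher, 11 lower). The block changed no other count by over 1.5 times. Shares of all tested probe sets with the block were 2.26% at 8 h, 7.5% at 64 h, 48.6% late against early and 28.6% between the lines. Without the block these shares were 1.06%, 3.57%, 35.3% and 12.2%. The labels do not say that a replicate number marks a shared batch or day. The main fit leaves the number out, so its errors include any steady difference between the numbers. Of 153 pairs of groups, 121 had deviations between the numbers that correlated above 0.1 (lowest -0.43, median 0.33), which falls short of every pair, and in 17 of 18 groups the mean correlation with the other groups was above 0. Replicate 1 arrays alone gave 2 members at 16 h, 4 at 64 h and 20 late against early. The shares of all probe sets there were 7.01% at 16 h, 7.87% at 64 h, and 24.8% lower and 25% higher late against early. Replicate 2 arrays alone gave 0 at 64 h (1.39% of all probe sets) and 4 late against early (6.21% lower and 10.2% higher). They gave 16 between the lines (21.3% lower and 15% higher) and 0 in the F-test over times (6.89%). Within a single replicate number the untreated lines and the interaction cannot be tested. Quantile normalization and median centring each gave 1 at 64 h, tud, with the shares of all probe sets not given here. Leaving out 1 array gave 0 to 1 member at 8 h, 0 to 6 at 32 h, 1 to 3 at 64 h, 8 to 18 late against early, 5 to 8 between the lines and 3 to 6 in the F-test over times, and 0 in the other 7 comparisons, the lone sample of a group being assumed to vary like the others. Of the 19 changes, 4 were not past the threshold in replicate 1 alone, 9 in replicate 2 alone, 2 without a filter, 4 with quantile normalization, 3 with median centring and 5 without the 32 h arrays, and the cause was not tested. The spread between arrays limits what a single time can resolve.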
